A study of Rattus norvegicus with 20 samples.

Results

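The expression of 8 genes of fatty acid uptake and oxidation, out of 30452 genes in the count table, was followed in both heart ventricles, right (RV) and left (LV), of rats treated with monocrotaline (MCT) or with saline. The 8 genes were taken by Ensembl ID from a list that paired the IDs with the names Cd36, Fabp3, Cpt1a, Cpt1b, Acadm, Pdk4, Ppara and Ppargc1a. MCT, a pyrrolizidine alkaloid, damages the pulmonary circulation, so that the RV has to pump against a raised pressure. There were 5 libraries in each of 4 groups, RV MCT and RV saline, and LV MCT and LV saline. All rats were male and weighed 250 g at injection. The MCT dose was 60 mg/kg, and animals were taken once their discomfort score had reached 7 or more. The labels give no strain or age, and they do not say whether the libraries of a group came from separate rats, so p-values take only the spread among the libraries into account. The study asked how each ventricle responds in this model.

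Heart muscle draws most of its energy from long-chain fatty acids. These enter the cell with the help of membrane proteins such as Cd36 and are carried in the cytosol by the heart-type binding protein Fabp3. Carnitine palmitoyltransferase 1 (Cpt1a, Cpt1b) commits them to the mitochondrion, where acyl-CoA dehydrogenases such as Acadm start each round of beta-oxidation. Pdk4 blocks pyruvate dehydrogenase and so spares glucose when fat is burned. The nuclear receptor Ppara and its coactivator Ppargc1a switch on many genes of this pathway.

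In the LV after MCT, 2 of the 7 members that could be tested fell, Fabp3 to 0.506 and Acadm to 0.559 of the saline level, and none rose, where 9.52% of all genes were called and 4.06% were called lower. In the RV no member passed the test, where 0.274% of all genes were called and 0.0366% were called lower. In Fabp3 and Pdk4 every RV MCT library still lay below every RV saline library, as it did in 1.42% of all genes. No member, and 0% of all genes, passed a test of the difference between the RV and LV responses. The LV calls are therefore not shown to be particular to the LV. Cd36 and both transferases, Cpt1a and Cpt1b, overlapped between MCT and saline in each ventricle.

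The sequences just before the starts of 4 genes, picked after their values were seen, are shown because these genes were low in many of the same MCT libraries. They are 250 bases from RefSeq (build GRCr8), 5′ to 3′ on the gene's strand, for Fabp3 (chr5:147935875-147936124, plus strand), Acadm (chr2:245542865-245543114, minus strand), Pdk4 (chr4:34568330-34568579, minus strand) and Ppargc1a (chr14:63634058-63634307, plus strand). Capitals mark TGACGTCA, the cAMP response element bound by CREB.
Fabp3: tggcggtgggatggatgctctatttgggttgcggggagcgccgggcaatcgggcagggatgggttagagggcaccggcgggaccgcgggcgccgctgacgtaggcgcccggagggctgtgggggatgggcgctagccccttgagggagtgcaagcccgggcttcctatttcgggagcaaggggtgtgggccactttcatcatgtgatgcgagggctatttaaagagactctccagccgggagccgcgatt
Acadm: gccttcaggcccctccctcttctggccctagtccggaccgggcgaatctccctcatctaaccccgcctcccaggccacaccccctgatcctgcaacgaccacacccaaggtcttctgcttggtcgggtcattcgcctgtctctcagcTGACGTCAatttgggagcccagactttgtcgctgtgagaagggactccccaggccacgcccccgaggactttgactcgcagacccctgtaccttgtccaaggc
Pdk4: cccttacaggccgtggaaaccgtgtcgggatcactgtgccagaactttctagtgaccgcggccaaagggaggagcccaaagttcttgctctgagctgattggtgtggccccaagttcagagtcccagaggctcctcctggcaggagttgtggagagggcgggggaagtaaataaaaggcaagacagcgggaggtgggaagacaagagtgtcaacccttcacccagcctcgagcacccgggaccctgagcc
Ppargc1a: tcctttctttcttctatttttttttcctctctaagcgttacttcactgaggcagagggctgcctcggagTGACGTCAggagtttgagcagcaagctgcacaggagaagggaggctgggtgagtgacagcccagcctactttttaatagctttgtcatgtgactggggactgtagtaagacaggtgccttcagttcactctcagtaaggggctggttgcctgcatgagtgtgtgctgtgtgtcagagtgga
A RefSeq promoter was matched for 7 of the 8 members, all but Cpt1b. The motif TGACGTCA was present in 2 of these 7, Acadm (bases 103 to 96 before the start) and Ppargc1a (bases 181 to 174 before it), and in 1.59% of 33469 rat promoters of the same length. The motif AGGTCA, the core recognised by Ppara and related receptors, was in 0 of the 7 and in 14.1% of all promoters. Its tandem form with 1 base between the copies, known as DR1, was in 0 of the 7 and 0.0508% of all, and TCAAGGTCA, which contains AGGTCA, was in 0 of the 7 and 0.388% of all. Both strands were searched, and the letters were chosen after the sequences had been seen. A match is a description of these letters, not a site.

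Total counts per library ran from 3272420 to 9227104. On the first principal component of all tested genes, which held 32.0% of the variance, 8 of the 10 MCT libraries scored 7.12 to 54.1 and the 10 saline libraries -31.0 to -9.61. The library labelled RV MCT replicate 4 scored -30.3 and that labelled LV MCT replicate 3 scored -21.0, both within the saline range, and values without them are given where they bear on a result. The description codes fell into an early set (3 libraries per group) and a late set (2 per group), which look like dates. RV MCT replicate 4 is in the late set and LV MCT replicate 3 in the early set. RV and LV libraries of the same treatment and number carry the same code, and the labels do not say whether they came from the same rat. LV MCT replicate 4 scored 28.5 and RV MCT replicate 3 scored 7.12, so in neither pair did both ventricles lie among the saline libraries. In bulk tissue, fewer cells of a type and less RNA per cell cannot be told apart.

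The members spanned a wide range of levels. QuantSeq counts transcript ends, so levels were not divided by length and are given as normalised counts per 1000000 library counts (CPM). Fabp3 was the most abundant, at 604 to 2088 CPM over the 20 libraries, and ranked 56 among all genes by mean level. Acadm (289 to 1068 CPM), Pdk4 (118 to 1082 CPM) and Cpt1b (344 to 637 CPM) followed, with ranks of 139, 162 and 181. Cpt1a was at 22.2 to 62.3 CPM and Cd36 at 13.5 to 39.1 CPM, ranks of 2888 and 3946. Ppargc1a, at 1.35 to 10.3 CPM, rested on 7 to 50 counts per library. Ppara had 1 to 12 counts per library and did not pass the filter on low counts, so 7 of the 8 members were tested. Within a library, the muscle isoform Cpt1b had 7.48 to 23.7 counts for each count of the liver isoform Cpt1a. The markers of heart muscle and of other cell types could not be looked up, since the files hold no names.

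**Figure D1:**
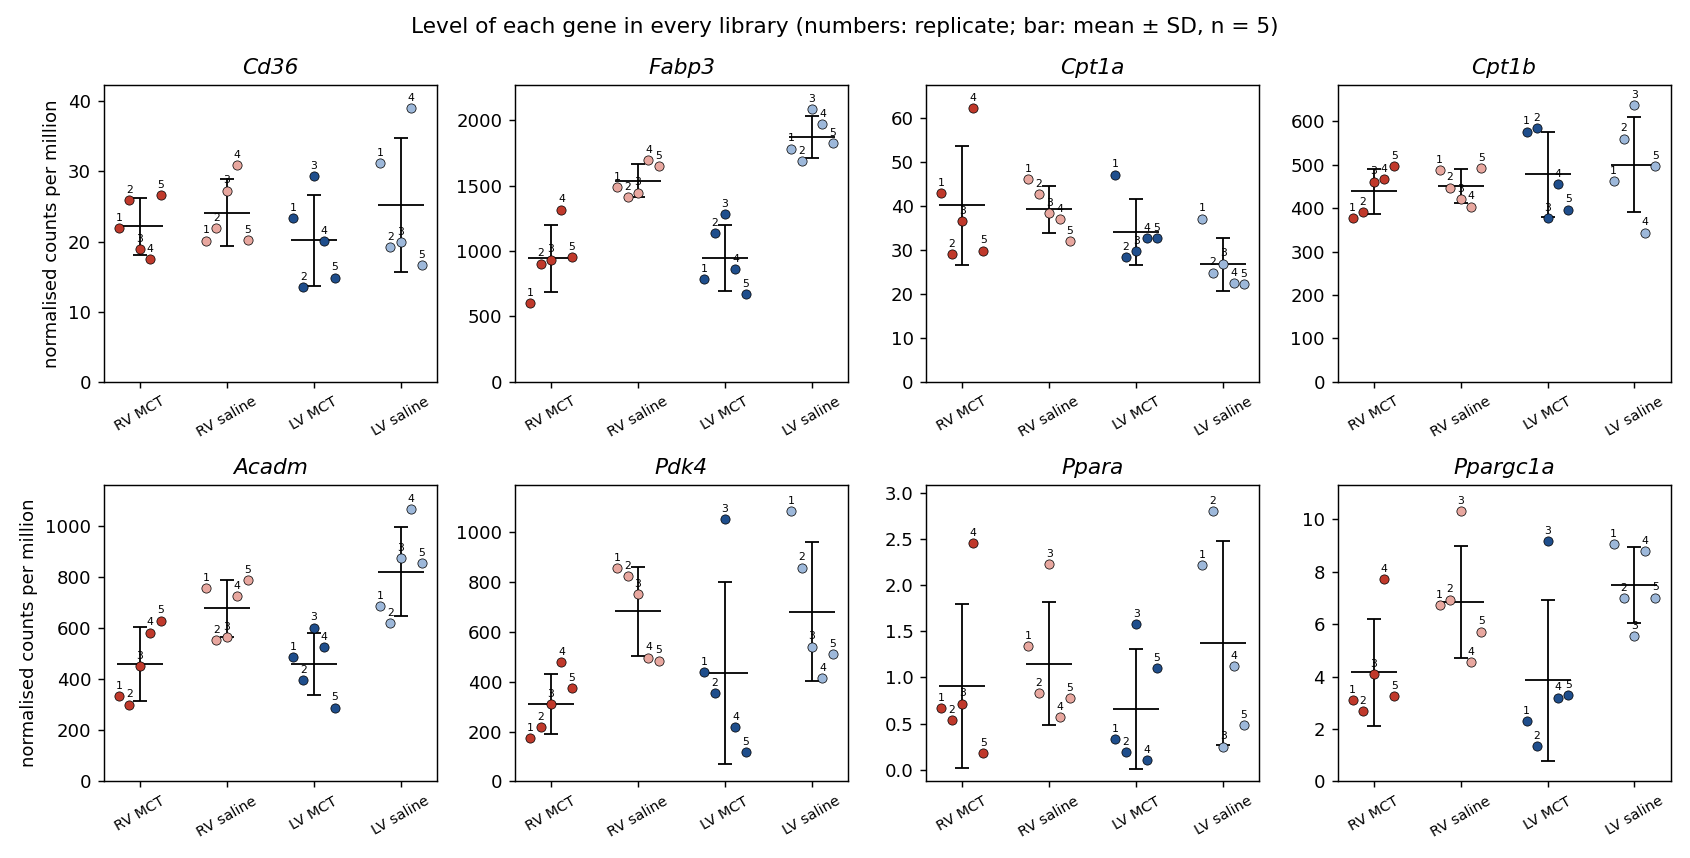
Normalised counts (CPM, vertical axes) of the 8 genes in the 4 groups, with 1 numbered point per library and bars for mean ± SD (n = 5). Fabp3 in MCT libraries sits at 604 to 1317 CPM in the RV and 670 to 1283 CPM in the LV, below all saline libraries, while Cpt1b overlaps in both ventricles.

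Cd36 (ENSRNOG00000005906), the membrane transporter that takes up long-chain fatty acids, overlapped between MCT and saline in both ventricles. It averaged 22.2 ± 4.07 CPM in RV MCT and 24.1 ± 4.78 CPM in RV saline libraries, and 20.2 ± 6.49 CPM in LV MCT and 25.2 ± 9.55 CPM in LV saline libraries (SD, n = 5 each). The RV log2 fold change of -0.11 (95% interval -0.61 to 0.38) and the LV one of -0.33 (-0.83 to 0.16) both had intervals across 0, and neither passed. The level covers only reads assigned to this ID.

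Fabp3 (ENSRNOG00000012879), the cytosolic carrier of fatty acids in heart, was the member that separated the groups most clearly. RV MCT replicates 1 to 5 had 604, 904, 935, 1317 and 955 CPM, against 1488, 1412, 1447, 1692 and 1646 CPM in RV saline. LV MCT replicates 1 to 5 had 786, 1136, 1283, 859 and 670 CPM, against 1783, 1688, 2088, 1972 and 1824 CPM in LV saline. In each ventricle every MCT library lay below every saline library, and the highest MCT value belonged to the library that lay among the saline ones. In the LV, Fabp3 fell by 0.98 on the log2 scale (SE 0.19, edgeR adjusted p = 0.0081). The RV value of -0.71 (SE 0.19, 95% interval -1.10 to -0.31) did not pass (edgeR adjusted p = 0.068). Of all genes, 1.42% in the RV and 3.82% in the LV had every MCT library below every saline library. The RV value passed without RV MCT replicate 4 (log2 fold change -0.86, edgeR adjusted p = 0.011) and, at -0.71, without LV MCT replicate 3 (edgeR adjusted p = 0.043). Within the early code set the log2 fold change was -0.82 in both the RV (edgeR adjusted p = 0.080) and the LV (edgeR adjusted p = 0.30). Within the late set it was -0.56 in the RV (edgeR adjusted p = 0.96) and -1.31 in the LV (edgeR adjusted p = 0.042).

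The transferases Cpt1a (ENSRNOG00000014254) and Cpt1b (ENSRNOG00000010438), which attach carnitine to fatty acids at the outer mitochondrial membrane, were not called in either ventricle. Cpt1b averaged 439 ± 51.8 CPM in RV MCT and 450.3 ± 39.2 CPM in RV saline libraries, and 478 ± 98.1 CPM in LV MCT and 500 ± 109.6 CPM in LV saline libraries (SD, n = 5 each). Its log2 fold changes were -0.04 (95% interval -0.38 to 0.31) in the RV and -0.06 (-0.41 to 0.28) in the LV. These intervals leave out a change of the size seen for LV Fabp3. Cpt1a ranged from 29.1 to 62.3 CPM in RV MCT and 32.0 to 46.2 CPM in RV saline libraries, and from 28.5 to 47.2 CPM in LV MCT and 22.2 to 37.1 CPM in LV saline libraries. On the log2 scale its difference was 0.02 (95% interval -0.40 to 0.45) in the RV and 0.36 (-0.07 to 0.79) in the LV. Without any normalization factor, which moved the median of all genes to 0.39 in the LV, Cpt1a was at 0.75 there (edgeR adjusted p = 0.028). In that fit 19.6% of all genes were called in the LV.

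Acadm (ENSRNOG00000009845), the medium-chain acyl-CoA dehydrogenase of mitochondrial beta-oxidation, fell in the LV. LV MCT replicates 1 to 5 had 486, 396, 603, 526 and 289 CPM, against 688, 621, 876, 1068 and 857 CPM in LV saline. RV MCT replicates 1 to 5 had 334, 301, 452, 583 and 629.95 CPM, against 758, 553, 565, 726 and 789 CPM in RV saline. The LV groups did not overlap, by a narrow gap between LV MCT replicate 3 and LV saline replicate 2, while in the RV replicates 4 and 5 reached the saline range. In the LV, Acadm fell by 0.84 on the log2 scale (SE 0.22, edgeR adjusted p = 0.025). The RV value of -0.56 (SE 0.22) did not pass (edgeR adjusted p = 0.19). The LV call was lost without LV MCT replicate 5 (edgeR adjusted p = 0.067) or LV saline replicate 3, 4 or 5 (edgeR adjusted p = 0.055, 0.069 and 0.054), and without normalization factors (log2 fold change -0.51, edgeR adjusted p = 0.13). Within the early and late code sets the RV value was -0.77 and -0.32 (edgeR adjusted p = 0.10 and 0.96). The log2 fold change in the LV was -0.59 within the early code set (edgeR adjusted p = 0.37) and -1.24 within the late set (edgeR adjusted p = 0.069).

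Pdk4 (ENSRNOG00000009565), the kinase that shuts off pyruvate dehydrogenase and is a known target of PPAR receptors, had the highest ratio of maximum to minimum level (9.14) among the well-expressed members. RV MCT replicates 1 to 5 had 172, 219, 309, 477 and 373 CPM, against 854, 822, 750.4, 496 and 485 CPM in RV saline. LV MCT replicates 1 to 5 had 437, 355, 1051, 219 and 118 CPM, against 1082, 857, 540.1, 415 and 509.6 CPM in LV saline. All RV MCT libraries lay below all RV saline libraries, narrowly for replicate 4. In the LV, replicates 2, 4 and 5 lay below the saline range, replicate 1 lay within it, and replicate 3 stood near the highest saline library. Neither the RV value of -1.14 on the log2 scale (SE 0.43, edgeR adjusted p = 0.17) nor the LV value of -0.64 (SE 0.42, edgeR adjusted p = 0.37) passed. Without LV MCT replicate 3 the LV value was -1.27 and passed (edgeR adjusted p = 0.024), and with limma voom it was -1.24 (limma voom adjusted p = 0.0076). Within the early code set the log2 fold change was -1.78 in the RV (edgeR adjusted p = 0.038) and -0.46 in the LV (edgeR adjusted p = 0.63). Within the late set it was -0.21 in the RV (edgeR adjusted p = 0.97) and -1.45 in the LV (edgeR adjusted p = 0.049). The difference between the sets was not tested, and LV MCT replicate 3 is in the early set.

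The regulators were the least abundant members. Ppargc1a (ENSRNOG00000004473), the coactivator that drives mitochondrial and fatty acid oxidation genes, had 3.10, 2.67, 4.09, 7.70 and 3.26 CPM in RV MCT replicates 1 to 5, against 6.71, 6.93, 10.3, 4.54 and 5.72 CPM in RV saline. LV MCT replicates 1 to 5 had 2.31, 1.35, 9.16, 3.20 and 3.30 CPM, against 9.05, 7.00, 5.53, 8.78 and 7.00 CPM in LV saline. In each ventricle 4 of 5 MCT libraries lay below all saline libraries, and the exceptions were RV MCT replicate 4 and LV MCT replicate 3. Neither the RV value of -0.76 on the log2 scale (SE 0.37, edgeR adjusted p = 0.29) nor the LV value of -1.07 (SE 0.37, edgeR adjusted p = 0.075) passed. Without LV MCT replicate 3 the LV value was -1.57 and passed (edgeR adjusted p = 0.0031), as it did at -1.08 without RV MCT replicate 4 (edgeR adjusted p = 0.048). It also passed at -1.06 with DESeq2 (adjusted p = 0.039) and at -1.28 with limma voom (adjusted p = 0.00047). Within the early code set the log2 fold change was -1.23 in the RV and -0.96 in the LV, and within the late set it was 0.02 in the RV and -1.29 in the LV. Ppara (ENSRNOG00000021463), the fatty acid receptor, summed to 22 counts over the RV MCT and 29 over the RV saline libraries, and to 15 over the LV MCT and 29 over the LV saline libraries. Per library it was at 0.181 to 2.45 CPM in RV MCT and 0.568 to 2.23 CPM in RV saline, and at 0.103 to 1.58 CPM in LV MCT and 0.251 to 2.80 CPM in LV saline. The groups overlapped in both ventricles. With no filter on low counts, its log2 fold change was -0.51 (SE 0.64, edgeR adjusted p = 0.79) for the RV and -1.38 (SE 0.67, edgeR adjusted p = 0.29) for the LV, so no difference was detectable at this depth.

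**Figure D2:**
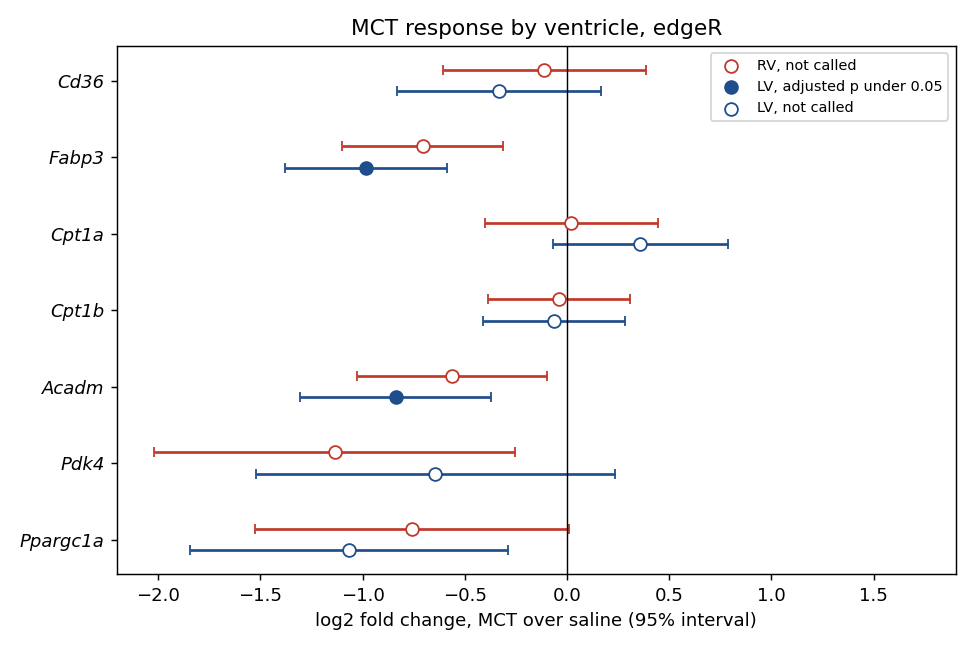
Log2 fold change of MCT over saline (horizontal axis) with its 95% interval for the 7 tested genes in the RV (upper marks) and LV (lower marks), filled where the edgeR adjusted p was under 0.05. LV Fabp3 at -0.98 and LV Acadm at -0.84 are filled, and both Cpt1b marks lie near 0.

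Among the 7 tested members, 6 had a negative log2 fold change in each ventricle. The median over these 7 was -0.56 for the RV, where that over all 10929 genes was 0.01, and -0.64 for the LV, where it was 0.03. In the RV 0 members were called by edgeR, where 0.274% of all genes were called and 0.0366% were called lower. An unadjusted p under 0.05 was reached by 3 RV members (Fabp3, Acadm and Pdk4) and by 17.5% of all genes. DESeq2 and limma voom each called 1 RV member, Fabp3, where they called 3.68% and 2.31% of all genes. In the LV 2 members were called, both lower, where 9.52% of all genes were called and 4.06% were called lower. An unadjusted p under 0.05 was reached by 3 LV members (those and Ppargc1a) and by 25.3% of all genes. DESeq2 called 3 LV members, Fabp3, Acadm and Ppargc1a, and 13% of all genes, and limma voom called 4, with Pdk4 added, and 26.5% of all genes. With both libraries that lay among the saline ones left out, 3 RV and 4 LV members were called lower, where 9.68% of all genes were called for the RV and 18.1% for the LV. The RV values were then -0.86 for Fabp3, -1.34 for Pdk4 and -1.02 for Ppargc1a (edgeR adjusted p = 0.0043, 0.022 and 0.0201). The LV values were -1.12 for Fabp3, -0.95 for Acadm, -1.27 for Pdk4 and -1.57 for Ppargc1a (edgeR adjusted p = 0.00027, 0.0066, 0.017 and 0.00072). That choice drops libraries because they looked unaffected, so these counts are no estimate of the effect.

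Fabp3, Acadm, Pdk4 and Ppargc1a, picked after their values were seen, were low in many of the same libraries. All 4 lay below every saline library of their ventricle in RV MCT replicates 1, 2 and 3 and in LV MCT replicates 2, 4 and 5. In RV MCT replicate 5 and LV MCT replicate 1 this held for 3 of the 4, and in RV MCT replicate 4 and LV MCT replicate 3 for 2 of the 4. The share of all genes that did so in each library was not counted, so these counts do not set the 4 genes apart. Set against the saline mean, the 4 genes ran from 25.3% to 49.2% in RV MCT replicate 1 and from 17.4% to 44.1% in LV MCT replicate 5. In RV MCT replicate 4 they ran from 70.02% to 112.6%, and in LV MCT replicate 3 from 68.6% to 154%. The 10 most abundant genes took 48.6% of counts in RV MCT replicate 4 and 50.2% in LV MCT replicate 3, against 25.6% to 42.0% in the other MCT libraries and 34.6% to 50.2% in saline libraries. Across the 20 libraries, the Pearson r of this share with the log2 level was 0.73 for Ppargc1a, 0.51 for Pdk4, 0.38 for Fabp3 and 0.19 for Acadm. The part of this share in the results was not tested.

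**Figure D3:**
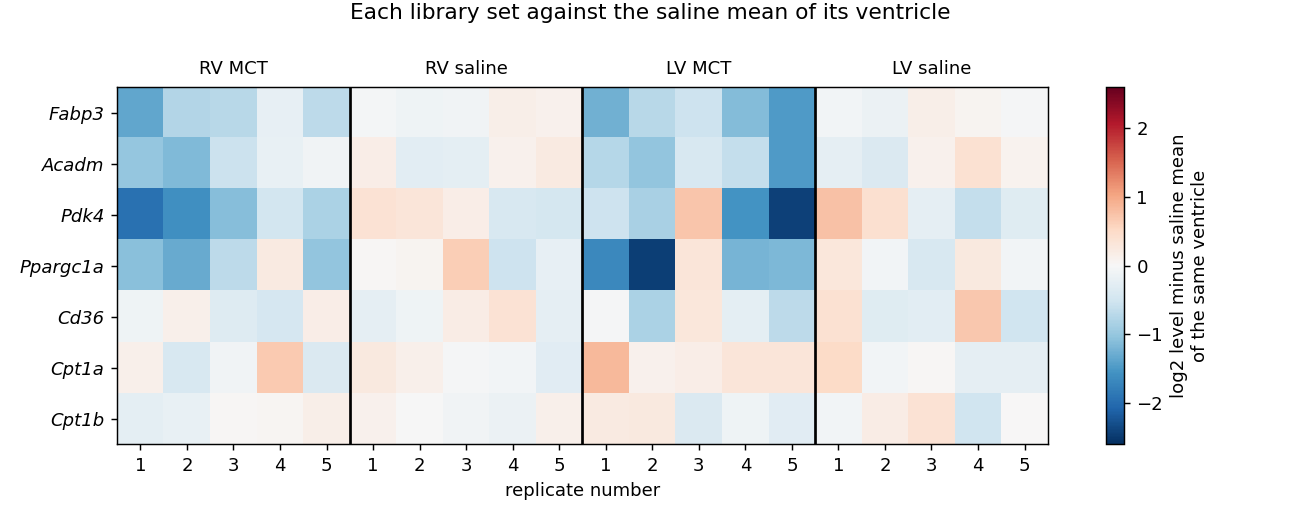
Log2 level of 7 genes (rows) in each of the 20 libraries (columns, replicate numbers within the 4 groups) minus the mean log2 level of the saline libraries of the same ventricle, blue for lower and red for higher. The upper 4 rows are blue in most MCT libraries, with RV MCT replicate 4 and LV MCT replicate 3 paler or red. The lower 3 rows share no shift, though Cpt1a lies above the saline mean in every LV MCT library (0.12 to 0.85).

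Across the 20 libraries, which share the 4 groups and were scaled together, Fabp3 and Acadm were most alike (Pearson r = 0.86, and 0.64 within groups after removing group means). Fabp3 and Pdk4 had r = 0.74 (0.57 within groups), and Pdk4 and Ppargc1a r = 0.69 (0.52 within groups). Cpt1b was close to none of the members, with its highest r at 0.24, to Pdk4, and Cpt1a had 0.04, also to Pdk4. Cd36 had r = -0.52 with Cpt1b and -0.58 within groups. Outside the list, 188 of 6884 genes were closer to Fabp3 than Acadm was. The closest was ENSRNOG00000013211 (r = 0.96), and the closest to Acadm was ENSRNOG00000009538 (r = 0.94). The files give no names for these IDs. The correlation with the first component was -0.89 for Fabp3, -0.85 for Ppargc1a, -0.84 for Pdk4 and -0.80 for Acadm, against -0.14 for Cpt1b and 0.05 for Cpt1a. These values are descriptions.

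Ratios of counts within a library need no scaling between libraries. Of 21 gene pairs in each ventricle, 3 in the RV and 1 in the LV did not overlap between MCT and saline. These pairs are described for that reason. Their denominators, Fabp3 in both ventricles and Pdk4 in the RV, had already separated as levels, so these ratios are no independent support for that fall. How many pairs of other genes would separate was not counted. Cpt1a had 0.0712, 0.0323, 0.0392, 0.0473 and 0.0313 counts per Fabp3 count in RV MCT replicates 1 to 5, against 0.0310, 0.0302, 0.0266, 0.0219 and 0.0194 in RV saline. In LV MCT replicates 1 to 5 it had 0.0600, 0.0250, 0.0232, 0.0381 and 0.0488, against 0.0208, 0.0147, 0.0129, 0.0114 and 0.0122 in LV saline. In each ventricle the MCT libraries all lay above the saline libraries, narrowly in the RV. The mean log2 ratio was higher after MCT by 0.73 in the RV and 1.38 in the LV. For each, the exact two-sided permutation p was 0.0079, the smallest that 5 against 5 allows, and the Benjamini-Hochberg value was 0.083 over 42 tests (21 gene pairs in each ventricle). Cpt1b per Fabp3 count ran from 0.354 to 0.625 in RV MCT and 0.238 to 0.327 in RV saline libraries, without overlap, a log2 difference of 0.703 with the same exact permutation p and adjusted value. In the LV it ran from 0.293 to 0.733 after MCT and 0.174 to 0.332 after saline, with LV MCT replicate 3 in the saline range (log2 difference 0.96, exact permutation p = 0.024, adjusted 0.11). Cpt1a per Pdk4 count was also without overlap in the RV (log2 difference 1.17, exact permutation p = 0.0079, adjusted 0.083). In the LV that ratio overlapped (log2 difference 1.29, exact permutation p = 0.063, adjusted 0.14). None of the 42 ratios passed after adjustment. A ratio at the smallest exact permutation p could pass over 42 tests only if several others were there too. This outcome therefore does not show that the ratios were unchanged. By contrast, Acadm per Fabp3 differed by 0.14 in the RV and 0.16 in the LV (exact permutation p = 0.46 and 0.38, adjusted 0.604 and 0.53).

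**Figure D4:**
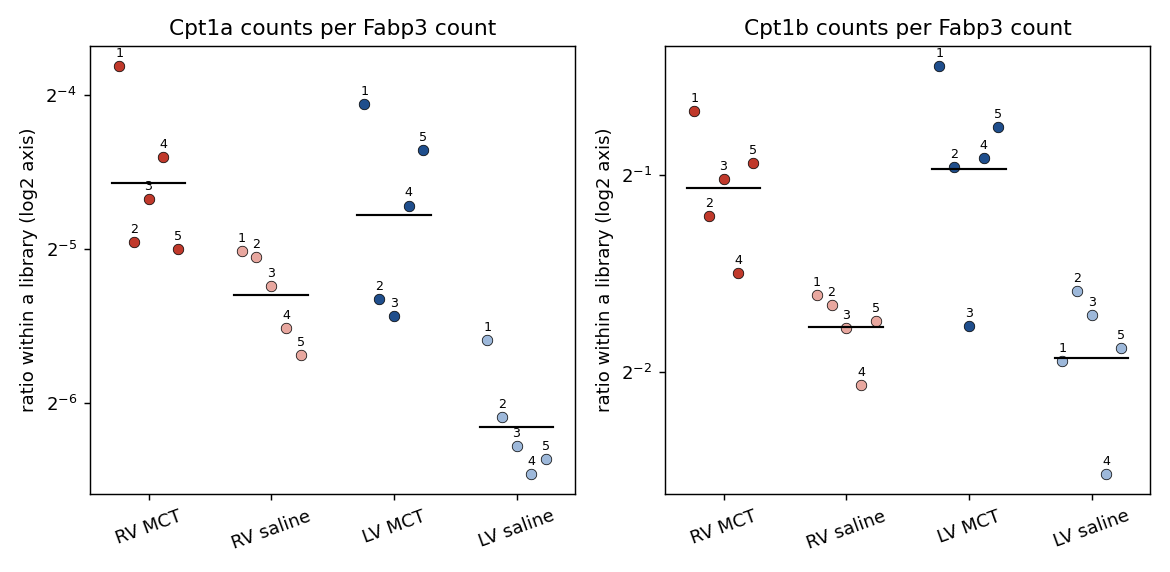
Counts of Cpt1a (left) and Cpt1b (right) per count of Fabp3 within each library (log2 axis), with numbered points for libraries and lines for the mean log2 ratio of the group. All MCT libraries lie above the saline libraries of their ventricle except LV MCT replicate 3 at 0.293 for Cpt1b.

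No member passed a test of the difference between the RV and LV responses. edgeR called 0 of 7 for the RV minus LV response, and 0% of all genes. Unadjusted, 0 members and 2.79% of all genes had p under 0.05. DESeq2 and limma voom called 0 members, where they called 0.00915% and 0% of all genes. For Fabp3, the RV response minus the LV response was 0.28 on the log2 scale (95% interval -0.28 to 0.83), and it was 0.28 for Acadm (-0.38 to 0.93) and 0.31 for Ppargc1a (-0.78 to 1.40). It was -0.34 for Cpt1a (-0.94 to 0.27) and -0.49 for Pdk4 (-1.73 to 0.74). All of these intervals span 0 and are wide, so the calls in the LV are not shown to be particular to it.

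A last comparison set RV against LV under the same treatment. After saline, edgeR called 0 of 7 members, where 0.0732% of all genes were called. DESeq2 and limma voom also called 0 members, where they called 0.805% and 1.04% of all genes. An unadjusted edgeR p under 0.05 was reached by 1 member and by 8.32% of all genes. That member was Cpt1a, at 39.3 ± 5.43 CPM in RV saline and 26.7 ± 6.14 CPM in LV saline libraries (SD, n = 5 each), a log2 fold change of 0.55 (95% interval 0.12 to 0.98, edgeR adjusted p = 0.40). Fabp3 was at 1537 ± 124.8 CPM in RV saline and 1871 ± 158.6 CPM in LV saline libraries, a log2 fold change of -0.28 (95% interval -0.67 to 0.11). Among the 5 saline pairs with a shared code, Cpt1a was higher in the RV in 5 and Fabp3 was lower in the RV in 5. With each pair of libraries that share a code as a block, Cpt1a was at 0.57 (95% interval 0.21 to 0.93, edgeR adjusted p = 0.28) and Fabp3 at -0.28 (edgeR adjusted p = 0.74). In that paired fit 0 of 7 members and 0.0823% of all genes were called after saline, and 0 members and 0% of all genes after MCT or for the RV minus LV response. After MCT, 0 members and 0% of all genes were called by each of edgeR, DESeq2 and limma voom. An unadjusted edgeR p under 0.05 was reached by 0 members and by 1.86% of all genes. Fabp3 then averaged 943 ± 253 CPM in RV MCT and 947 ± 254 CPM in LV MCT libraries, a log2 fold change of -0.01 (95% interval -0.40 to 0.39).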

How the data were processed

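Total RNA of 20 rat ventricle samples was read at transcript 3' ends with QuantSeq. The deposited values were raw counts per Ensembl gene. The tools named in the submitters' processing notes are STAR 2.7.10a and HTSeq 0.11.3, and the builds are mRatBN7.2 and rn6, with no role for either. The sources used here give no strand setting or annotation release, so overlapping genes and near-identical copies could share counts.

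All 30452 gene rows were used. The reference table (GRCr8) held an Ensembl ID for 0 genes. Member names therefore come from the gene list itself, and other pathway genes and cell type markers, chosen by symbol, were not analysed here. The members and lists were chosen with earlier results of these data known.

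The test on counts was the quasi-likelihood test of edgeR 4.0.16 (R 4.3.3, TMM normalization, filterByExpr, robust fit of 4 group means over 20 libraries, Benjamini-Hochberg adjustment over 10929 genes, threshold 0.05). The standard error was derived from the F statistic. Levels are counts per 1000000 library counts (CPM), scaled with TMM factors. Correlations used log2 CPM with a prior count of 2. Within-library ratios of raw counts were tested with exact permutation tests in SciPy 1.17.1. The fit was checked on independent counts simulated from the saline means. These held no code sets, no RV and LV pairs and no MCT libraries lying among the saline ones. The check therefore does not cover those features. All 8 members were named, and likeness was ranked by Pearson r among genes with a mean log2 CPM of at least 3.

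Alternatives were RLE or no normalization factors, other filters on low counts (none, or a level of 1 CPM reached in 5 or more libraries), only the groups compared, a term for the description code set, DESeq2 1.42.0, limma 3.58.1 voom with quality weights, a replicate block and leaving out each library. Fits within each code set and without 2 libraries that lay among the saline ones were added after seeing the data. Total counts of 3272420 to 9227104 per library limit the precision for weakly expressed genes. No 2 libraries of a group were identical.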

Additional observations from a re-analysis of the deposited data

Results flagged for a closer look

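A library was picked out when it stood far from the other 4 of its group, relative to the whole spread of the 5. Of 36 sets looked at, 5 were picked out, where chance picks about 1 in 20. Ppargc1a in RV MCT replicate 4 was at 7.70 CPM, and the next RV MCT library was at 4.09 CPM. Ppargc1a in LV MCT replicate 3 was at 9.16 CPM, with the next LV MCT library at 3.30 CPM. Ppara in RV MCT replicate 4 was at 2.45 CPM, from 7 counts, with the next library at 0.716 CPM. LV MCT replicate 3 scored -21.0 on the first component, with the next LV MCT library at 28.5. These 4 values belong to the 2 libraries that lay among the saline ones. Cpt1a in LV MCT replicate 1 was at 47.2 CPM, with the next LV MCT library at 32.7 CPM.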

How the results depend on the processing

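The RV count of 0 members was 1 with DESeq2, 1 with limma voom, 1 within the early code set and 3 without both libraries that lay among the saline ones, and 0 to 1 with single libraries left out. In the LV, 2 members became 3 with DESeq2, 4 with limma voom, 4 without both libraries and 0 within the early code set, where edgeR called 0% of all genes, and 1 to 4 with single libraries left out. Without normalization factors the LV count was also 2, but these were Fabp3, lower, and Cpt1a, higher, and 19.6% of all genes were called. Within the late code set the LV count was 2 as well, Fabp3 and Pdk4, both lower, where 2.19% of all genes were called. Acadm was called in neither fit. The counts for the other comparisons stayed at 0 in each fit run. The shares of all genes called move with these settings, in the RV 3.68% with DESeq2, 2.31% with limma voom, 1.73% in the early set and 9.68% without both libraries, and in the LV 13%, 26.5%, 0% and 18.1%. The shares moved too when single libraries were left out. Without LV MCT replicate 3 the LV count was 4 and the share 15.2%. The LV count was 1 without LV MCT replicate 5 or LV saline replicate 3, 4 or 5 (2.98%, 4.78%, 4.09% and 4.32%). It stayed at 2 without LV MCT replicate 4 (4.29%). The RV count was 1 without RV MCT replicate 4 (6.34%) or LV MCT replicate 3 (2.14%). It stayed at 0 without RV MCT replicate 3 (2.27%). With the replicate block the RV count was 0, where 0% of all genes were called. The LV count was 2, where 5.02% of all genes were called, and the other counts were 0. This block joins MCT to saline libraries by number only, and RV to LV libraries by number and shared code. Same-numbered libraries did not all deviate together (correlations from -0.32 to 0.22 between MCT and saline, and from -0.35 to 0.59 between RV and LV), and the own number matched best in 0 of 5 RV and 1 of 5 LV libraries between treatments, and in 1 of 5 MCT and 3 of 5 saline libraries between ventricles. Fabp3, Acadm and Pdk4 were lower after MCT in both ventricles in all 32 alternatives, and Ppargc1a in the LV. Without normalization factors, which moved the median of all genes to 0.15 in the RV and 0.39 in the LV, small negative values changed sign, to 0.0399 for Cd36 and 0.0847 for Cpt1b in the RV, and to 0.0104 for Cd36 and 0.32 for Cpt1b in the LV. The RV value of Cpt1a, near 0, was -0.0755 with limma voom, -0.0166 with the replicate block, -0.18 without both libraries and -0.22 within the early code set, and ran from -0.18 to 0.12 with single libraries left out. Cpt1b ran from -0.0831 to 0.00973 in the RV and -0.18 to 0.0365 in the LV with single libraries left out. It was 0.0085 in the LV without both libraries, and 0.11 in the RV and 0.0175 in the LV within the late code set, where RV Ppargc1a was 0.0176. For each of these, the cause was not tested. Ppara with no filter, or with 1 CPM in 5 libraries as the filter, was at -0.51 and -0.52 in the RV and at -1.38 and -1.40 in the LV. Depth limits Ppara, with at most 12 counts per library, and Ppargc1a, with at most 50.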

Other observations

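Pdk4 differed between the code sets among saline libraries. In the RV it was at 750.4 to 854 CPM in the 3 early saline libraries and at 485 to 496 CPM in the 2 late ones. In the LV it was at 540.1 to 1082 CPM in the early and at 415 to 509.6 CPM in the late saline libraries. The sets did not overlap in either ventricle, narrowly in the LV. How many of all genes split in this way was not counted, and the RV and LV libraries share codes. This split was noticed in the data, so no test is given.

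The ratio of the muscle to the liver transferase was compared within libraries. Cpt1b had 8.78, 13.4, 12.6, 7.48 and 16.7 counts per Cpt1a count in RV MCT replicates 1 to 5, and 10.5, 10.5, 11.0, 10.9 and 15.4 in RV saline. In LV MCT replicates 1 to 5 it had 12.2, 20.5, 12.7, 13.9 and 12.1, and in LV saline 12.5, 22.5, 23.7, 15.3 and 22.3. The log2 difference between MCT and saline was -0.03 in the RV and -0.42 in the LV (exact permutation p = 0.94 and 0.087, adjusted over 42 ratios 0.94 and 0.17), so neither passed.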
